A study of Mus musculus with 6 samples.

Results

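The 10 genes described here belong to the heat shock protein families and were followed in mouse liver: Hspa1a, Hspa1b and Hspa8 of the HSP70 family, Hsp90aa1 and Hsp90ab1 of the HSP90 family, Hsph1, Dnajb1, the small heat shock proteins Hspb1 and Hspb8, and Hspd1. The genes were taken as a list that was chosen with earlier results of these data known. Their probes were found by the RefSeq accession on the array, every probe being kept. This gave 12 of the 55681 probes on the array and stood for 9 of the 10 genes, since no probe matched Hspa1b. The list is headed as cytosolic, which is the place of 9 of its genes, whereas Hspd1 encodes the mitochondrial chaperonin HSP60 and is described apart.

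RNA came from the livers of male C57BL/6J mice, with no allele or transgene named for any group. In the PVBL group (portal vein branch ligation, 3 samples) the left portal branch had been tied and the unligated right lobe, which regenerates, was taken at day 3. In the sham group (3 samples) mice were operated on without ligation and liver was also taken at day 3, so surgery is shared by both groups. The labels do not say that each sample came from its own animal, so the p-values speak of the spread among these 6 samples only, and some of that spread may be technical.

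Heat shock proteins are chaperones, which bind unfolded or newly made proteins and keep them from clumping. HSP70 proteins work in cycles of ATP hydrolysis that J proteins such as Dnajb1 start and exchange factors such as Hsph1 and Bag3 reset, and they pass some clients on to HSP90. Hspa8, Hsp90ab1 and Hspd1 are made in unstressed cells, while Hspa1a, Hspa1b, Hsp90aa1, Hspb1 and Dnajb1 are classical targets of the transcription factor HSF1, which binds repeats of a short GAA unit in alternating orientation, the heat shock element.

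The stretches that hold such repeats are shown because they are the kind of sequence that HSF1 is known to bind. The RefSeq promoter table (build GRCm38.p6) had windows for 7 of the 10 genes, and Hspa8, Hsp90aa1 and Hsp90ab1 had none. The 250 bases before each start site were searched for 2 units (GAANNTTC or TTCNNGAA, each its own reverse complement) and for 3 units, which are such a pair followed by NN and a further unit in the orientation of the first, on either strand, and so contain the former. Repeats of 2 units were found for 5 of the 7 genes, against 14.5% of the 27025 genes in the table (12.8% of 32851 windows). Repeats of 3 units were found for Hspd1 alone among the 7, against 0.514% of all genes (0.466% of windows). No match in Hspb8 or Dnajb1 means only that these letters were not in that window. The matches are given below 5′ to 3′ on the gene's strand, with the matched units in capitals.
Hspa1a, chr17:34972223-34972290, minus strand: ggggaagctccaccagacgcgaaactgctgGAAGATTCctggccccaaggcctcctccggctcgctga
Hspb1, chr5:135887772-135887839, plus strand: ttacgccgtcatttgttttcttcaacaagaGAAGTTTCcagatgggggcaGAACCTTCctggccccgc
Hsph1, chr5:149636337-149636399, minus strand: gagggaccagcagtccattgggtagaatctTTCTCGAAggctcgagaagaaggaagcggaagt
Hspd1, chr1:55088053-55088082, minus strand: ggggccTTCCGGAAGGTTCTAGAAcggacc
The Hspa1a stretch, with its unit pair beginning 104 bases before the start site, stood letter for letter before Hspa1b at chr17:34959305-34959372. Over the whole 250 bases Hspa1a and Hspa1b were identical at 247 positions and differed at 3 (98.8% identity). The Hspb1 pairs began 117 and 97 bases before its start site. The Hspd1 run of 18 bases began 144 bases before its start site, and a second Hspd1 start site in the table lay upstream of it.

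Signals were read on 6 single-colour arrays, of which 48.0% to 53.6% of probes were well above background, and no spot was saturated. A level here is the log2 of the processed signal minus the log2 of that array's 75th percentile signal (203 to 407), so a level of 0 equals that percentile. Levels of different probes are not compared, because probes differ in brightness for the same amount of RNA. Arrays correlated at r 0.983 to 0.991 among PVBL samples, 0.991 to 0.996 among sham samples and 0.956 to 0.968 between groups. All arrays lay on 1 slide with sham samples in row 1 and PVBL samples in row 2, so row and surgery cannot be told apart. As a check of the labels, all 5 markers of dividing cells were higher in PVBL, with a median log2 difference of 6.17. The 8 hepatocyte markers were well expressed, with 1 lower and none higher, and their median difference was -0.37.

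The question was how the heat shock genes of the regenerating lobe compared with those of the sham liver at day 3. One gene rose, Hsp90aa1, and no other heat shock gene passed the test in either direction. All 12 probes were well above background on all 6 arrays and were tested with limma, with Benjamini-Hochberg adjustment over all 27914 probes tested and a threshold of 0.05. Of the 12 probes 1 was called higher, 0 lower and 11 were not called, and 2 (Hsp90aa1 and Dnajb1, both higher) had an unadjusted p under 0.05. Over all probes tested 11.3% were called higher and 19.3% lower, 30.5% in either direction. PVBL and sham arrays did not overlap for 2 of the 12 probes, against 50.7% of all probes. In both the PVBL arrays were the higher, as in 17.6% of all probes, and in 33.1% of all probes they were the lower. The size of the differences was small beside the rest of the array: the median absolute log2 difference was 0.20 for the 12 probes and 0.39 for all probes tested, and 0 of 12 differed by 2-fold or more against 11.7% of all. The signed median was 0.08 for the 12 probes and -0.19 for all, with 7 probes above 0 and 5 below. In bulk tissue, fewer cells of a type and less RNA per cell cannot be told apart.

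**Figure D1:**
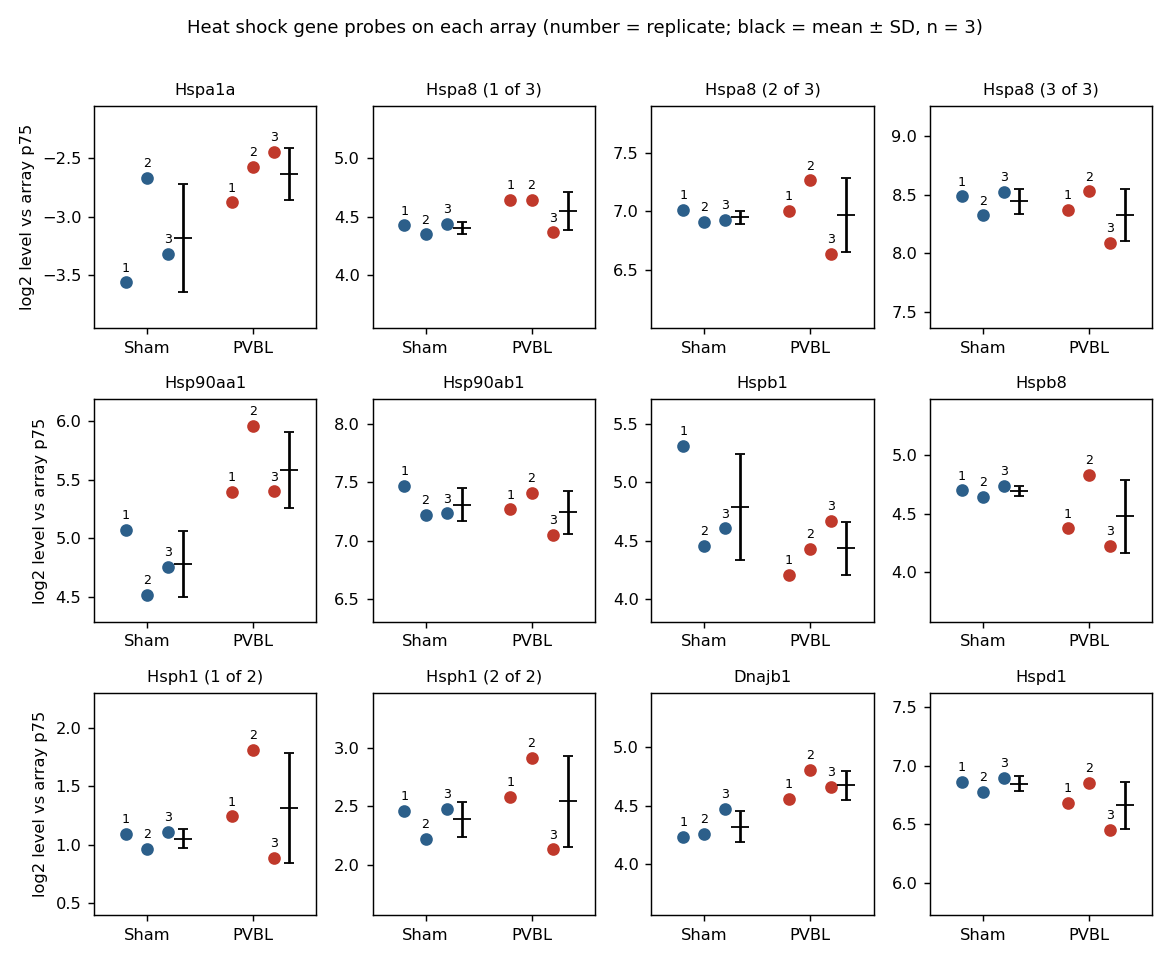
Level of each of the 12 heat shock gene probes on each array, in log2 units relative to that array's 75th percentile (p75), with 1 panel per probe, numbered points for replicates and black marks for the mean ± SD of 3 arrays. Sham and PVBL points are apart only for Hsp90aa1 and Dnajb1, and the PVBL 2 point is the highest of its group in 9 of the 12 panels.

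Among the HSP90 genes, the stress-inducible form rose and the constitutive form was not called. The level of Hsp90aa1 (probe A_55_P2057946), the inducible cytosolic HSP90 that holds kinases and hormone receptors in a usable fold, was 5.40, 5.96 and 5.40 in PVBL 1 to 3 and 5.07, 4.51 and 4.76 in sham 1 to 3. Every PVBL array stood above every sham array. Hsp90aa1 was 1.75-fold higher in PVBL (95% confidence interval 1.23 to 2.49), a log2 difference of 0.81 ± 0.22 (SE, n = 3 per group) with a limma adjusted p of 0.0305. The call was near the threshold: it was lost without PVBL 1 (adjusted p = 0.0505), PVBL 2 (log2 difference 0.62, adjusted p = 0.0610), sham 2 (0.67, 0.0957) or sham 3 (0.79, 0.0868), with no filter on dim probes (0.104) and with the replicate number as a block (0.0589). Over all its alternatives the adjusted p ran from 0.00926 to 0.104.

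The level of Hsp90ab1 (probe A_55_P2048434), the HSP90 made in unstressed cells, was 7.27, 7.41 and 7.04 in PVBL 1 to 3 and 7.47, 7.22 and 7.23 in sham 1 to 3. The groups overlapped in part, with sham 1 above every PVBL array and PVBL 3 below every sham array. The log2 difference was -0.07 (95% confidence interval -0.42 to 0.29, limma adjusted p = 0.748) and had the opposite sign under normexp background correction (0.02), quantile (0.17), median (0.06) and spike-in scaling (0.36). An interval of that width leaves room for a PVBL level from 0.75-fold to 1.22-fold that of sham. When Hsp90aa1 was taken relative to Hsp90ab1 on the same array, with the sham mean set to 0, the PVBL values were 0.66, 1.08 and 0.88 and the sham values 0.13, -0.18 and 0.05. The values of the groups did not overlap and their means differed by 0.87, or 1.83-fold. The exact permutation test gave p = 0.1 (two-sided), the smallest p that 3 against 3 allows, and 0.3 after adjustment over the 3 such pairs of members. None of these ratios could therefore pass 0.05, and they were chosen after seeing the data.

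**Figure D2:**
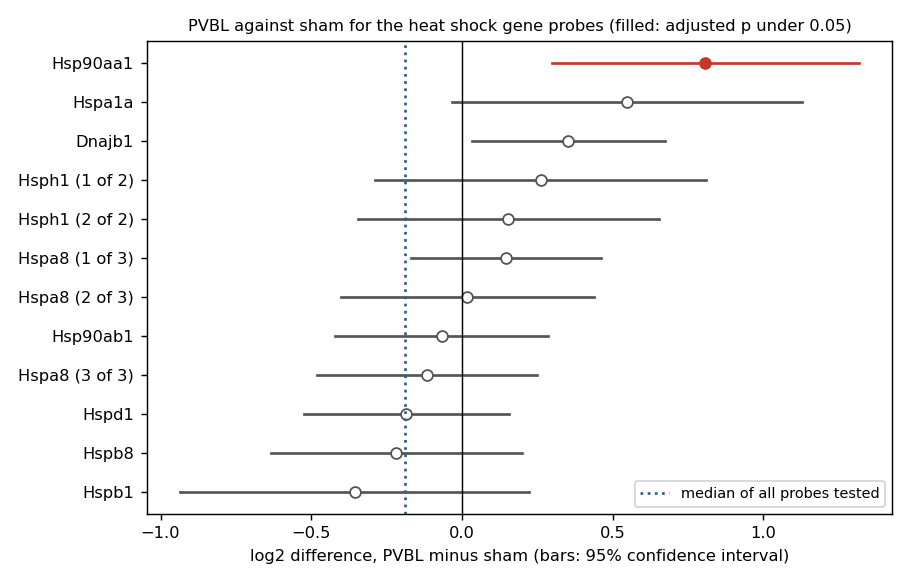
Log2 difference of PVBL minus sham for each heat shock gene probe, with bars for the 95% confidence interval from limma, a filled red point where the adjusted p is under 0.05, and a dotted line at the median of all probes tested (-0.19). The Hsp90aa1 interval (0.30 to 1.32) and the Dnajb1 interval (0.03 to 0.67) lie above 0, and the other 10 intervals span 0.

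In the HSP70 group neither the inducible nor the constitutive gene passed the test. The level of Hspa1a (probe A_55_P2068459), the strongly stress-inducible HSP70, was -2.88, -2.58 and -2.45 in PVBL 1 to 3 and -3.56, -2.67 and -3.32 in sham 1 to 3. Sham 2 stood above PVBL 1, and the other sham arrays stood below all PVBL arrays. This probe was dim, with signals of 55.3, 55.5 and 62.4 in PVBL and 26.6, 47.2 and 20.4 in sham, where the lowest signal called well above background was 13.3 to 23.8 on the 6 arrays. The log2 difference was 0.55 ± 0.25 (SE; 95% confidence interval -0.03 to 1.13), with a limma adjusted p of 0.128. The value depended on the settings: normexp background correction gave 0.07, and without sham 2 the gene was called higher (0.81, adjusted p = 0.0399). The normexp setting added 50 to every corrected signal, which shrinks the log2 differences of dim probes. Hspa1a and Hspa1b are near-identical copies, so which of them this probe read is uncertain.

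Hspa8, the HSP70 of unstressed cells that also uncoats clathrin vesicles, had 3 probes. The level of the brightest (A_55_P2080603) was 8.37, 8.53 and 8.09 in PVBL 1 to 3 and 8.49, 8.32 and 8.52 in sham 1 to 3. PVBL 2 was the highest array and PVBL 3 the lowest, with the sham arrays between them. Its log2 difference was -0.12 (95% confidence interval -0.48 to 0.25), turning to 0.21 with quantile, 0.02 with median and 0.32 with spike-in scaling. The other Hspa8 probes differed by 0.15 (A_52_P12877, -0.17 to 0.46) and 0.02 (A_55_P2069721, -0.40 to 0.44). None of the 3 passed the test, with limma adjusted p between 0.423 and 0.943. The intervals of all 3 reached at most 0.46 upward and -0.48 downward. Hspa1a relative to Hspa8 on the same array was higher in PVBL by 0.67 on the log2 scale, with overlapping groups (exact permutation test, two-sided p = 0.3, adjusted 0.45). Under normexp background correction, with 50 added to every signal, this ratio was higher by 0.11.

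Hsph1 encodes HSP110, a distant HSP70 relative that exchanges nucleotide on HSP70, and its 2 probes gave the same picture. For the brighter probe (A_55_P2176963) the level was 2.58, 2.91 and 2.13 in PVBL 1 to 3 and 2.46, 2.22 and 2.48 in sham 1 to 3. PVBL 2 was the highest and PVBL 3 the lowest of the 6, so the sham arrays fell inside the PVBL range. The log2 differences were 0.15 (95% confidence interval -0.34 to 0.65) and 0.26 (A_55_P2003513, -0.29 to 0.81), with adjusted p of 0.596 and 0.411 by limma. The SD among PVBL arrays was 0.39 and 0.47 for the probes and 0.15 and 0.08 among sham arrays.

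Dnajb1, the J protein HSP40 that delivers clients to HSP70, was the other gene whose groups did not overlap. The level of its probe (A_51_P153486) was 4.56, 4.80 and 4.66 in PVBL 1 to 3 and 4.23, 4.26 and 4.47 in sham 1 to 3. The closest pair was PVBL 1 and sham 3. The log2 difference was 0.35 ± 0.14 (SE, n = 3 per group), or 1.28-fold (95% confidence interval 1.02 to 1.59), with an unadjusted p of 0.0351 and a limma adjusted p of 0.0877, which misses the threshold. It was called higher under normexp background correction (0.45, adjusted p = 0.0190), quantile scaling (0.44, 0.0405), median scaling (0.48, 0.0299) and array weights (0.30, 0.0252), and the difference was positive in all 18 alternatives that gave a value.

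The small heat shock proteins, which hold unfolded proteins without using ATP, were not called. The level of Hspb1 (HSP27, probe A_55_P2039284) was 4.21, 4.43 and 4.67 in PVBL 1 to 3 and 5.31, 4.46 and 4.60 in sham 1 to 3. Sham 1 was well above the other 5 arrays, which overlapped. The log2 difference was -0.36 (95% confidence interval -0.93 to 0.22, limma adjusted p = 0.295), and -0.10 without sham 1. For Hspb8, a partner of the exchange factor Bag3 in sending damaged proteins to autophagy, the level (probe A_51_P464387) was 4.38, 4.83 and 4.23 in PVBL 1 to 3 and 4.70, 4.65 and 4.74 in sham 1 to 3. PVBL 2 was above every sham array and the other PVBL arrays below them. The log2 difference was -0.22 (95% confidence interval -0.63 to 0.20, adjusted p = 0.370). Both signs turned with spike-in scaling (0.08 for Hspb1 and 0.21 for Hspb8), and both genes were called lower with array weights (-0.64 and -0.29). Hspb1 relative to Hspb8 on the same array differed by -0.14 (exact permutation test, two-sided p = 0.6, adjusted 0.6).

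The mitochondrial chaperonin Hspd1, which folds imported proteins together with its cap Hspe1, had a level (probe A_55_P1955587) of 6.68, 6.85 and 6.45 in PVBL 1 to 3 and 6.86, 6.77 and 6.90 in sham 1 to 3. PVBL 2 lay among the sham arrays and the other PVBL arrays below them. The log2 difference was -0.18 (95% confidence interval -0.52 to 0.16, limma adjusted p = 0.352), turning to 0.06 with quantile and 0.25 with spike-in scaling. Its promoter stretch, shown above, was the 1 with 3 or more units in a row.

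**Figure D3:**
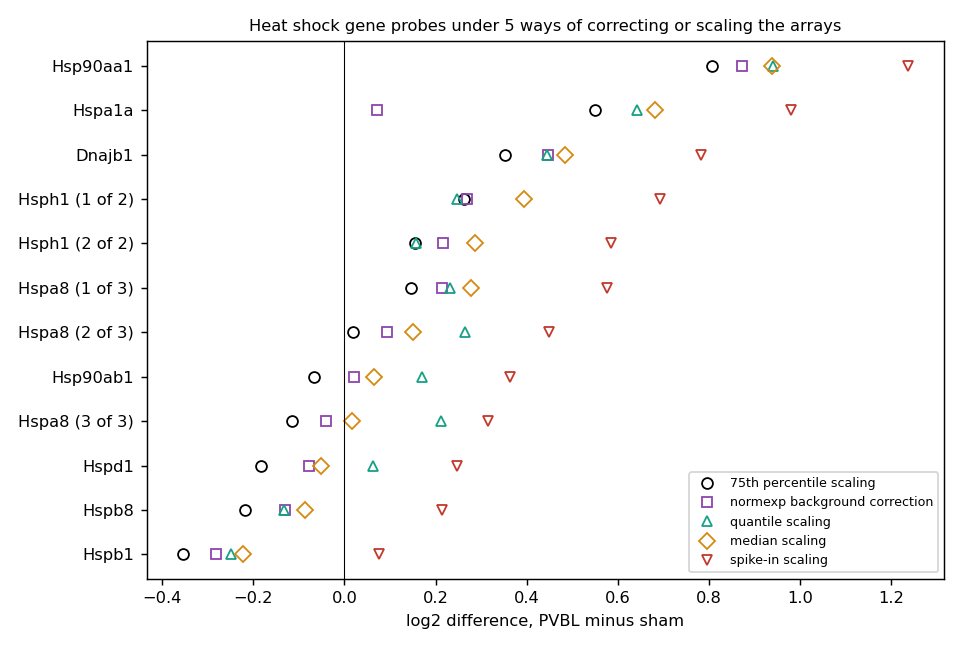
Log2 difference of PVBL minus sham for each heat shock gene probe under 75th percentile scaling, normexp background correction, quantile, median and spike-in scaling, with no error shown. Hsp90aa1 stays the largest difference under each, Hspa1a drops to 0.07 with normexp, and every probe is above 0 with spike-in scaling.

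Which differences lay below 0 depended on the scale. The median of all probes tested was -0.19 with the 75th percentile, -0.06 with the array median and 0.24 with the spike-in probes, of which there were 8, and the heat shock gene probes moved with it. Under each of the 5 ways of correcting or scaling the arrays the Hsp90aa1 difference was positive and called, and it ran from 0.81 to 1.24. Those of Hspa1a, Dnajb1, both Hsph1 probes and the dimmer 2 Hspa8 probes were positive under each as well.

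Within the PVBL group the same arrays were high or low for most heat shock gene probes. PVBL 2 was the highest PVBL array for 9 of the 12 probes, as it was for 43.4% of all probes, and PVBL 3 was the lowest for 8, against 46.1%. PVBL 2 stood above PVBL 3 in 10 of 12 probes, with a median log2 difference of 0.42, against 59.3% of all probes and a median of 0.10. The exceptions were Hspa1a and Hspb1, in which PVBL 3 was the highest of its group. In the sham group, sham 2 was the lowest for 10 of 12 probes (36.9% of all probes) and sham 3 the highest for 7 (42.0%). The median SD of the 12 probes was 0.23 among PVBL arrays and 0.12 among sham arrays, beside 0.22 and 0.16 over all probes. These are descriptions of 6 arrays, and probes of 1 gene share its RNA.

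**Figure D4:**
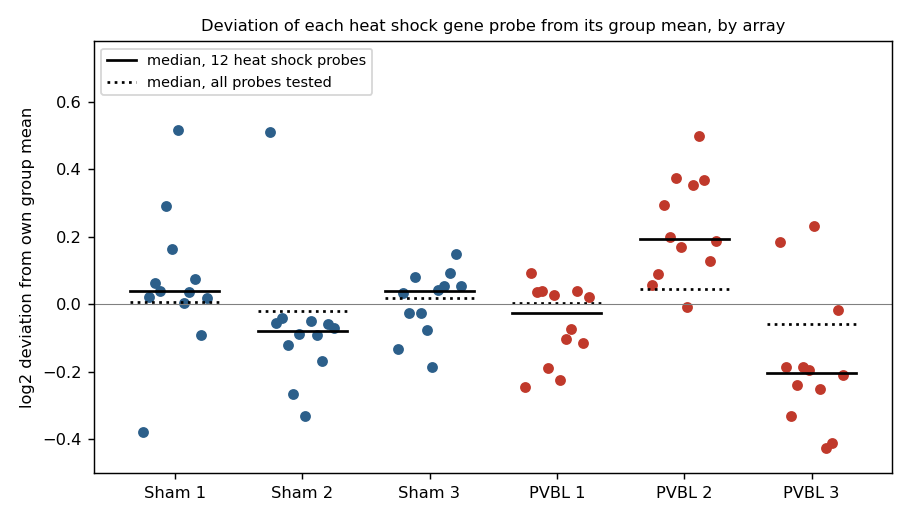
Deviation of each heat shock gene probe from the mean of its own group on each array, in log2 units, with 12 points per array, a solid line at their median and a dotted line at the median of all probes tested. The PVBL 2 points centre on 0.19 and the PVBL 3 points on -0.20, where all probes centre on 0.05 and -0.06.

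The partners of these chaperones were read from 10 lists of other chaperone genes and heat shock factors, some of which share genes, with the brightest tested probe standing for a gene. Of 123 genes 115 were tested, and 12 were called higher, 9 lower and 94 not called. The shares were 10.4% higher and 7.83% lower, where 14.4% and 16.8% of all 13586 named genes were, and the median log2 difference was -0.03 against -0.10 for all named genes. The counts fell to 4 higher and 5 lower without PVBL 1 and without sham 2, to 5 and 2 without sham 1, and to 5 and 4 without sham 3. Bag3, Dnajc9 and Vbp1 kept their calls in all 19 alternatives, and the other called genes named from these lists lost them in 1 (Dedd2 and Dnajb11) to 10 (Grpel1) alternatives, which were not run for Zfand2a.

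The HSP70 partners came from 3 of the lists, and their counts stand beside 14.4% of all named genes called higher and 16.8% lower. Of 9 exchange factors and adaptors 1 rose and none fell, and this was Bag3, an HSF1 target that links HSP70 to small heat shock proteins. Its level was 3.34, 3.54 and 3.43 in PVBL 1 to 3 and 2.58, 2.86 and 2.51 in sham 1 to 3, with every PVBL array above every sham array. Bag3 was 1.73-fold higher (log2 difference 0.79 ± 0.14 SE, limma adjusted p = 0.00858). Of 17 cytosolic J proteins 1 rose and 1 fell. Dnajc5 counts as not called by its brightest probe, though 2 of its 3 tested probes were called. Dnajc9, a J protein that also handles newly made histones, rose 3.37-fold (1.75 ± 0.26, adjusted p = 0.00394), and the markers of dividing cells rose beside it, whose part in that result was not tested. Dnajc14 fell (-0.72, adjusted p = 0.0279), a call made by 1 of its 2 tested probes and lost with median or spike-in scaling. Of 7 HSP70 and HSP110 relatives 1 was called higher and 1 lower. Hspa13 counts as not called by its brightest probe, though 1 of its 2 tested probes was called. Hspa4l was 1.50-fold higher (adjusted p = 0.0288), a call lost in 8 of 19 alternatives. Hspa1l, best known from testis, was above background on 3 sham arrays and on no PVBL array, so it was tested only through the group where it is high, and it was at least 1.38-fold lower. Its call, counted among the 9 above, is no support for a change, and it was lost in 7 of 18 alternatives. With the filter set to all 6 arrays Hspa1l was not tested, so that setting cannot speak to its call.

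The list of 22 co-chaperones of HSP90 had a median of 0.05. Beside 14.4% of all named genes called higher and 16.8% lower, 4 of the 22 rose and none fell. These were Nudcd2 (log2 difference 0.78, adjusted p = 0.0115), Chordc1 (0.61, 0.0216), Fkbp5 (0.59, 0.0300), an immunophilin of steroid receptor complexes that glucocorticoids induce, and Unc45a (0.59, 0.0194), a helper of myosin folding. With no filter on dim probes 0 of the 4 were called (adjusted p = 0.0573 for Nudcd2), and 1 was with spike-in scaling, without PVBL 1 and without sham 1, sham 2 or sham 3. Spike-in scaling gave larger differences for Chordc1 (1.04), Fkbp5 (1.02) and Unc45a (1.02), but with an SE of 0.40 for each their calls were lost. Of 14 subunits of the chaperonin TRiC and of prefoldin, which fold actin and tubulin, 2 rose: Vbp1 rose 2.06-fold on the brighter of 2 called probes (adjusted p = 0.00322), and Pfdn4 rose 1.40-fold (adjusted p = 0.0319, lost in 9 of 19).

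Of 6 small heat shock relatives 1 rose and 2 fell, beside 14.4% of all named genes called higher and 16.8% lower. The lens crystallin Cryaa was 3.13-fold lower (log2 difference -1.64, adjusted p = 0.0187), Hspb9 fell (-0.78, adjusted p = 0.0145), and Hspb6, known from muscle, rose (0.60, adjusted p = 0.0256). The Hspb6 call was lost in 7 of 19 alternatives, among them those without PVBL 1, PVBL 2, sham 1, sham 2 or sham 3, the Cryaa call in 4 (without PVBL 1, PVBL 2 or sham 1, and with no filter) and the Hspb9 call in 3 (without sham 1, with spike-in scaling and with no filter). Beside Hspb6, the summed linear level of the 3 smooth muscle markers was 22.4 to 41.9 in PVBL and 17.4 to 24.1 in sham, and that of the 4 skeletal muscle markers, none of which was tested, was 0.113 to 0.158 and 0.144 to 0.177. The part of either in the Hspb6 result was not tested.

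**Figure D5:**
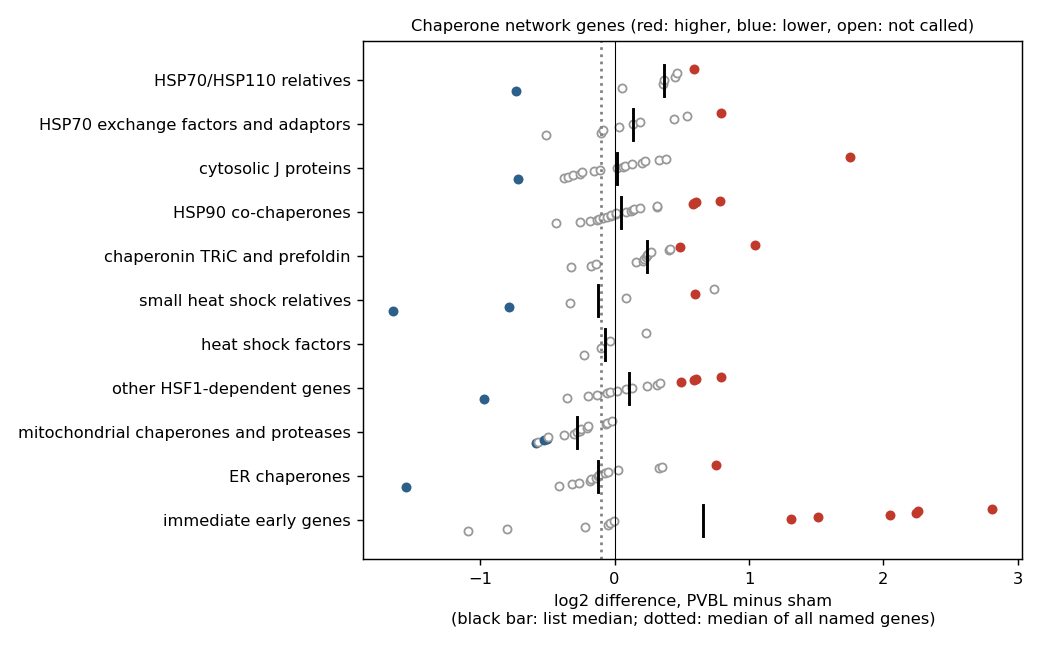
Log2 difference of PVBL minus sham for the tested genes of each chaperone list and of the immediate early genes, with red points for genes called higher, blue for lower, open for not called, a black bar at each list's median and a dotted line at the median of all named genes (-0.10). Called genes are few in each chaperone list, and the mitochondrial list lies wholly below 0, from -0.59 to -0.02.

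The heat shock factors themselves were not called. Hsf1, the main activator of the heat shock response, had a level of 1.03, 0.92 and 0.76 in PVBL 1 to 3 and 0.91, 1.07 and 0.84 in sham 1 to 3, with overlapping groups. Its log2 difference was -0.04 (limma adjusted p = 0.856), and that of Hsf2 was -0.10 (adjusted p = 0.655). Both turned positive with median and spike-in scaling. Hsbp1, a binder of HSF1, differed by 0.23 (adjusted p = 0.179), and 3 of the 7 factors on the list were above background on no array. A list of 16 further genes that depend on HSF1 had a median of 0.11. Of these genes 4 rose and 1 fell, beside 14.4% of all named genes called higher and 16.8% lower. The 4 were Bag3, Chordc1 and Hspa4l, all counted above, and Zfand2a (0.50, adjusted p = 0.0330), which was named after its value was seen. The gene that fell was Dedd2 (-0.97, adjusted p = 0.00422), which was 1.96-fold lower and lost its call with spike-in scaling.

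Chaperones of mitochondria and of the endoplasmic reticulum were read from 15 genes each. The list of mitochondrial chaperones and proteases had a median of -0.28. Of its genes none rose and 3 fell, beside 14.4% of all named genes called higher and 16.8% lower. These were Yme1l1, a protease of the inner membrane (-0.59, adjusted p = 0.0160), Grpel1, the exchange factor of mitochondrial HSP70 (-0.53, adjusted p = 0.0456), and Hscb, a J protein of iron-sulphur cluster assembly (-0.50, adjusted p = 0.0221). All 3 calls were lost with spike-in scaling and with no filter, and the Grpel1 call was made by 1 of its 2 tested probes. Of the chaperones of the endoplasmic reticulum 1 rose and 1 fell, both cofactors of its HSP70: Dnajb9 rose 1.69-fold (adjusted p = 0.0202) and Dnajb11 was 2.93-fold lower (log2 difference -1.55, adjusted p = 0.00319).

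Some immediate early genes, whose RNA rises within minutes of a stimulus, were higher in the same samples. Of 12 such genes 6 rose and none fell, beside 14.4% of all named genes called higher and 16.8% lower. The other 6 were not called, and all had log2 differences below 0, from -1.09 (Nr4a1) to -0.004 (Fosb). For Dusp1 (-0.80, limma adjusted p = 0.0756) every PVBL array was below every sham array. Atf3 rose 7.02-fold (adjusted p = 0.00934), Egr1 4.79-fold (0.0120) and Jun 4.13-fold (0.00141). Fos was also called higher (0.000979), but its probe was dim in sham, with signals of 24.1, 18.0 and 10.8 and 2 of 3 arrays above background. It was thus tested only through the group where it is high, so its call, counted among the 6, is no support for a change. Its log2 difference of 2.24 shrank to 0.66 with normexp background correction, which added 50 to every signal. The summed linear level of the immediate early genes was 30.4 to 33.7 in PVBL and 8.04 to 18.0 in sham. Its part in the Hsp90aa1 and Bag3 results was not tested.

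Markers of other liver cells also differed between the groups, with the same shares of all named genes (14.4% higher and 16.8% lower) as background. Of 6 bile duct markers tested 3 rose and 1 fell. Krt7, which rose, was above background on 3 PVBL and 2 sham arrays, and Cftr, which fell, on 1 and 3. Each of them was thus tested only through the group where it is high. The summed linear level of all 7 listed markers was 7.04 to 21.7 in PVBL and 2.23 to 4.62 in sham. Most of that sum was Spp1, with a log2 level of 2.53 to 4.30 in PVBL and 0.36 to 1.77 in sham. Such sums weigh bright probes most. Of 7 stellate cell markers 3 rose and 1 fell (11.0 to 26.2 against 7.82 to 8.77), and of 6 markers of sinusoidal endothelium none rose and 2 fell (45.0 to 67.0 against 104 to 111). Of 6 Kupffer cell markers 1 rose, Marco (log2 difference 2.52), and the other 5 were not called. The median difference of the 6 was -0.23. Their summed level was 90.1 to 240 in PVBL and at most 124 in sham. The lowest PVBL sum lay below every sham sum and the highest above every sham sum, so the sums did not separate the groups. Hepatocyte markers summed to 3663 to 4999 in PVBL and 5542 to 6377 in sham. The part of these shifts in the heat shock results was not tested.

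The genes most like a heat shock gene were sought by the root mean square difference of levels over the 6 arrays, each gene taken relative to its own mean. For Hspa1a they were Dmd (0.126), Eid2 (0.129), Zfp983 (0.154) and Fhit (0.155), beside a median of 0.513 over all genes. For the brightest Hspa8 probe they were Yars2 (0.0278), Psmd12 (0.0366), Psma3 (0.0370) and Lias (0.0374), beside a median of 0.297. With quantile scaling the distances from Hspa8 grew to 0.181 for Yars2, 0.107 for Psmd12 and 0.128 for Lias, and with normexp background correction the Yars2 distance was 0.0525 and those of Dmd and Eid2 from Hspa1a were 0.0559 and 0.0598. Psmd12 and Psma3 are subunits of the proteasome. The distances describe these 6 arrays, and a gene that hardly moves is near any other such gene.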

How the data were processed

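Spot intensity was deposited as scanner output of Feature Extraction 10.7.3.1 (Agilent) for array design 028005, annotated on build mm9, per the file headers. The submitters' processing notes name version 9.1. The processed signal was already background-corrected, per the file headers. Control spots (3671) and outlier spots (115 to 201 per array) were left out, spots of a probe averaged, log2 taken and each array's 75th percentile subtracted. The deposited value table holds log2 values whose normalization is not given in the sources used here. They matched (r at least 0.9997) such levels centred on each probe's median, and column medians were -0.18, -0.15 and -0.22 (PVBL) and 0.17, 0.15 and 0.18 (sham). Groups did not overlap in 100% of its 7849 rows and it holds 0 of the heat shock gene probes, so it served only as an alternative. Testing covered the 27914 probes that every array of a group, in 1 group or both, had well above background, with limma 3.58.1 in R 4.3.3 (lmFit, eBayes, two-sided; Benjamini-Hochberg, threshold 0.05), and SE and intervals (95%) are limma's. A gene above background on no array of a group has a bound: the other group's mean against, per array, the higher of its own signal and the lowest signal well above background. Accessions matched a RefSeq gene table (GRCm38.p6, names only) for 26413 probes (47.4%), 0 with several genes, leaving 29268 unnamed. The 10 genes and all lists were chosen with earlier results of these data known. Named were all 10 genes, Hsf1, Hsf2, up to 4 called genes per list with the largest difference (the 2 brightest where no gene was called), and the 4 genes most like Hspa1a (Hspa1b had no probe) and most like Hspa8. On data simulated for PVBL against sham with 27878 probes, the fit recovered 44% of 100 probes changed by 1 and 85% of 100 changed by 2 on the log2 scale. No other simulated probe was changed, a far smaller share than the 30.5% called in the data. The adjustment is stricter when few probes change, so these rates cannot be read as the sensitivity of this comparison. With 3 arrays per group, their number limits the precision. The other marker lists gave these counts: of 4 T and NK cell markers 2 fell, of 3 B cell, 4 neutrophil, 1 smooth muscle, 3 mesothelium and 1 pancreas marker none was called, of 2 red cell markers 1 fell, and the 1 adipocyte marker tested rose. Of the 2 T and NK cell markers that fell, Cd8a was above background on 3 sham arrays and on no PVBL array. It was tested only through the group where it is high, so its call is no support for a change.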

Additional observations from a re-analysis of the deposited data

How the results depend on the processing

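Of 718 values of single named probes under 19 alternatives, 586 kept direction and side of the threshold, 98 lost the call, 8 gained it and 26 changed sign. Heat shock gene probes called higher were 1 as reported, 2 with normexp background correction, quantile scaling, median scaling and array weights, 0 with no filter and 0 with the replicate block, and 0 to 1 without 1 array (0 without PVBL 1, PVBL 2 or sham 3, and Hspa1a in place of Hsp90aa1 without sham 2); those called lower were 0 as reported, 2 with array weights and 0 without 1 array. Over all probes, 3142 were called higher as reported, 1676 with no filter, 5367 with array weights, 2053 with 1 probe per named gene and 1961 (without sham 1) to 3306 without 1 array, and 5374 lower as reported, 3289 with median scaling, 435 with spike-in scaling, 1945 with no filter, 10379 with array weights, 2422 with 1 probe per gene and 2197 (without sham 1) to 5196 without 1 array, with 3263 without PVBL 1, 2957 without sham 2 and 2820 without sham 3. Chaperone network genes called higher were 12 as reported, 20 with quantile, 19 with median and 6 with spike-in scaling, 3 with no filter, 28 with array weights and 4 to 15 without 1 array, and lower 9 as reported, 1 with spike-in scaling, 2 with no filter, 22 with array weights and 2 to 12 without 1 array. Signs turned under scaling for Hspa8 A_55_P2080603 (0.21 quantile, 0.016 median, 0.32 spike-in), Hsp90ab1 (0.021 normexp, 0.17 quantile, 0.065 median, 0.36 spike-in), Hspb1 (0.076 spike-in), Hspb8 (0.21 spike-in), Hspd1 (0.063 quantile, 0.25 spike-in), Hsf1 (0.10 median, 0.40 spike-in, 0.050 array weights) and Hsf2 (0.032 median, 0.33 spike-in). Without 1 array the range crossed 0 for Hspa8 A_55_P2069721 (-0.13 to 0.18), Hspa8 A_55_P2080603 (-0.22 to 0.0045), Hsp90ab1 (-0.15 to 0.030), Hsph1 A_55_P2176963 (-0.030 to 0.36), Hsf1 (-0.098 to 0.037) and Hsf2 (-0.25 to 0.0014). Hspa1a relative to Hspa8 moved from 0.67 to 0.11 with normexp; the within-array ratios and their settings were chosen after seeing the data. The cause of these changes was not tested. Samples with the same replicate number correlated at 0.20, -0.04 and 0.23 in their deviations from the group means, so the numbers were not taken as pairs. Normexp used the median spot signal, since the mean is not among the columns used here, a change made after seeing the files. It added an offset of 50 to every corrected signal, which shrinks the log2 differences of dim probes such as those of Hspa1a and Fos. A slide block was not run because all arrays lay on 1 slide, and the authors' value table gave no value for the heat shock gene probes.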
